A study of Mus musculus with 8 samples.

Results

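The genes described here are 36 genes of fatty acid uptake, storage and oxidation, picked by symbol from a fixed list. All 36 were found among the 23284 gene symbols measured. They were followed in Lineage- Sca-1+ c-Kit+ (LSK) cells of the bone marrow, which include blood stem cells and early progenitors. The cells came from C57BL/6 male mice aged 12 to 13 weeks, with no transgene or mutation named in the labels. In the glucose group (2 libraries), mice that had fasted overnight for over 14 hours were given intravenous glucose at 2 g/kg in the early morning for 7 days. In the glucose with lipid group (2 libraries) they were given the same glucose plus Intralipid, a 20% lipid emulsion of triglyceride, at 6 mL/kg. The control groups (4 libraries) were injected with phosphate-buffered saline (PBS) instead, and so received neither glucose nor lipid. All mice ate freely by day, and marrow of femurs and tibias was taken on day 8, after the last injection day. Whether each library is 1 mouse or a pool is not stated in the labels, so the p-values below measure the spread between libraries. That spread was estimated for each gene over all groups together. An outlying library therefore also widens the standard error (SE) of comparisons that leave it out. Fold changes are on the log2(FPKM + 1) scale, which understates the changes of genes at low levels. Levels are given in FPKM, fragment counts scaled for transcript length and library size, which allows a comparison between genes. Between libraries the comparison is approximate. The way libraries were scaled was not given, and the summed FPKM of a library ran from 645780 to 778895. A single gene, Mir682, made up 18.5 to 24.2% of these sums. Over genes above 1 FPKM in every library, the median ratio to the geometric mean ran from 0.993 to 1.01.

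Fatty acids reach a cell as free acids or are cut from lipoprotein triglyceride at the cell surface. Inside, they are carried by binding proteins, joined to coenzyme A, and either built back into triglyceride in lipid droplets or moved into mitochondria on carnitine. There beta-oxidation shortens them step by step, and its electrons pass through electron transfer flavoprotein to ubiquinone. The PPAR nuclear receptors bind fatty acids and switch on many of these genes. In haematopoietic stem cells, PPAR delta and fatty acid oxidation are known for a role in keeping the cells from being used up by symmetric commitment.

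Each treatment had PBS controls of its own, but the labels do not say which PBS libraries these are. PBS libraries H and I (PBS H/I) share sample letters with the glucose with lipid libraries and were taken as their controls, and the remaining libraries J and K (PBS J/K) as those of glucose. This pairing was inferred from names. Transcripts of 12 LSK and stem cell markers were present in all 8 libraries, with a summed level between 1789 and 2266 FPKM. The lowest of these sums was that of glucose with lipid replicate 1. Such a sum does not show that a library held LSK cells alone. One library stood furthest apart. Replicate 1 of glucose with lipid held 65156 FPKM summed over 11 neutrophil markers, against 138 to 442 FPKM in the other 7 libraries. In that library all 11 of the neutrophil markers, 11 of 13 monocyte and macrophage markers, 7 of 10 erythroid, 6 of 8 B and plasma cell and 4 of 8 T and NK cell markers lay above 2 times the highest other library. Both glucose with lipid libraries were high in summed erythroid markers, at 2954 and 1708 FPKM, against 807 and 783 FPKM in PBS H/I and 294 to 571 FPKM in the glucose and PBS J/K libraries. The part of other blood cells in the glucose with lipid results below was not tested. In bulk RNA, fewer cells of a type and less RNA per cell cannot be told apart.

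No member changed past the threshold of 0.05 in limma's test with Benjamini-Hochberg adjustment over all 11931 genes tested. This held for glucose against PBS J/K, where 0.101% of all genes passed, and for glucose with lipid against PBS H/I, where 0.0754% did. It also held for the difference between these effects (0.0168% of genes passed), for all 4 treated against all 4 PBS libraries (0.268%), and for PBS H/I against PBS J/K (0.0503%). The test covered 33 members that reached 1 FPKM in 2 or more libraries. Ppara, Ppard and Mgll fell short of that level.

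After glucose, 2 members had an unadjusted p under 0.05 with a higher level, Pnpla2 and Acadm, and 3 with a lower level, Etfb, Angptl4 and Etfa. That is 15.2% of the tested members, against 14.9% of all genes at an unadjusted p under 0.05. After glucose with lipid, Fabp4 and Plin2 were the 2 members at an unadjusted p under 0.05, both higher, or 6.06% of members against 11.8% of all genes. The median log2 fold change over the tested members was 0.01 after glucose and 0.08 after glucose with lipid, beside -0.00014 and 0.0109 over all genes. In the comparison of all treated with all PBS libraries the members' median was 0.05, beside -0.00695 over all genes. There Plin2 and Acadm were higher and Angptl4 and Etfb lower at an unadjusted p under 0.05, as were 11.4% of all genes in either direction. Cd36 was past that p too, but it entered the test through 2 treated libraries alone and is not counted. Groups did not overlap for 19 members (57.6%) after glucose, against 47.1% of all genes, and for 15 members (45.5%) after glucose with lipid, against 44% of all genes. The 19 include Cd36 and the 15 include Cd36 and Pparg, which entered the test through treated libraries alone. PBS H/I and PBS J/K, both without glucose or lipid, differed at an unadjusted p under 0.05 for 5 members and 17.2% of all genes, and did not overlap for 12 members (36.4%) and 49.7% of all genes. The difference between the treatment effects had an unadjusted p under 0.05 for 1 member, Etfb, and for 12.2% of all genes.

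**Figure D1:**
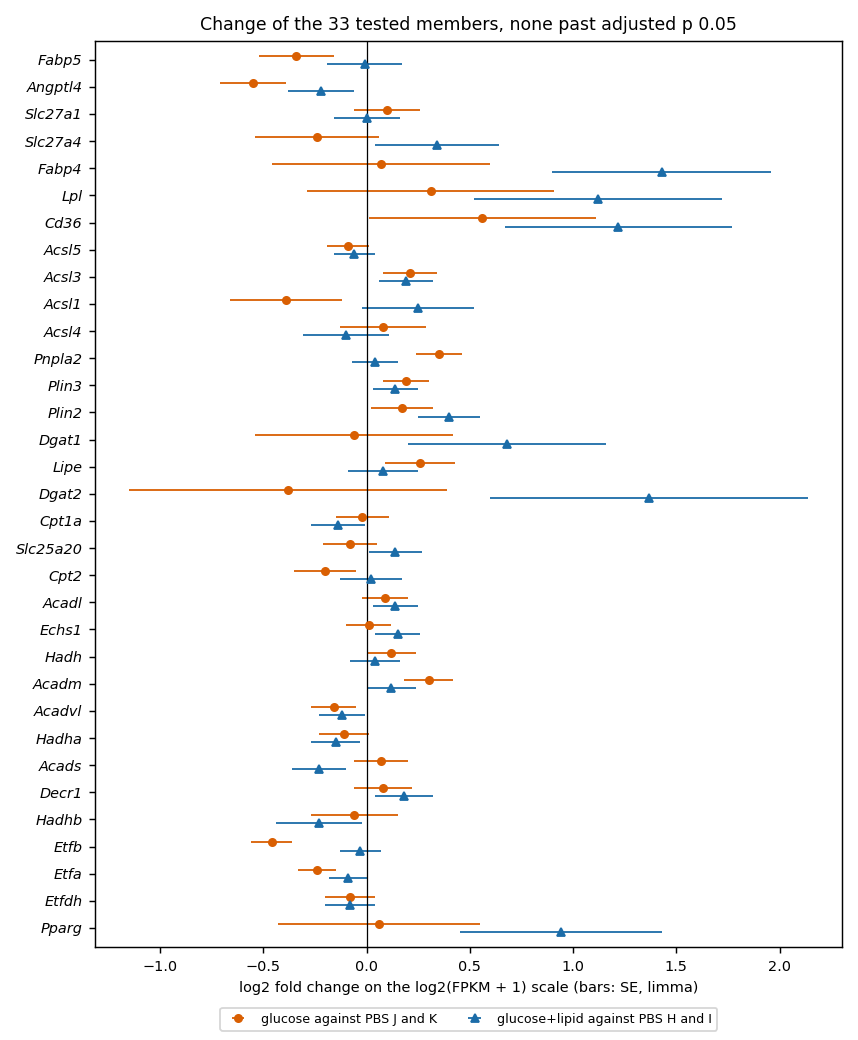
Log2 fold change (x axis, on the log2(FPKM + 1) scale) of the 33 tested members (y axis, grouped by role and ordered by level) after glucose against PBS J/K (circles) and after glucose with lipid against PBS H/I (triangles), with SE bars from limma. Most beta-oxidation and carnitine shuttle genes sit near 0 with short bars, while Dgat2, Fabp4, Cd36 and Lpl have long bars, with estimates for glucose with lipid of 1.37, 1.43, 1.22 and 1.12. Both bars of a gene have the same length, because the spread was estimated over all groups together.

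The members spanned a wide range of levels. In PBS libraries the 3 electron transfer genes averaged between 47.4 and 511 FPKM, the 9 beta-oxidation genes between 11.9 and 129.9 FPKM, and the 3 carnitine shuttle genes between 25.0 and 47.0 FPKM. The 3 PPAR factors lay at the other end, at 0.0104 to 0.656 FPKM. Etfb stood above 99.0% of all tested genes in its mean PBS level, Acadl above 93.0% and Acsl5 above 91.3%. Cd36 stood above 0.528% of them. Among the 26 tested members with a mean of at least 10 FPKM, 20 varied less than 1.5 times between the lowest and the highest of the 8 libraries, or 76.9% of these members against 55% of all genes at that level.

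**Figure D2:**
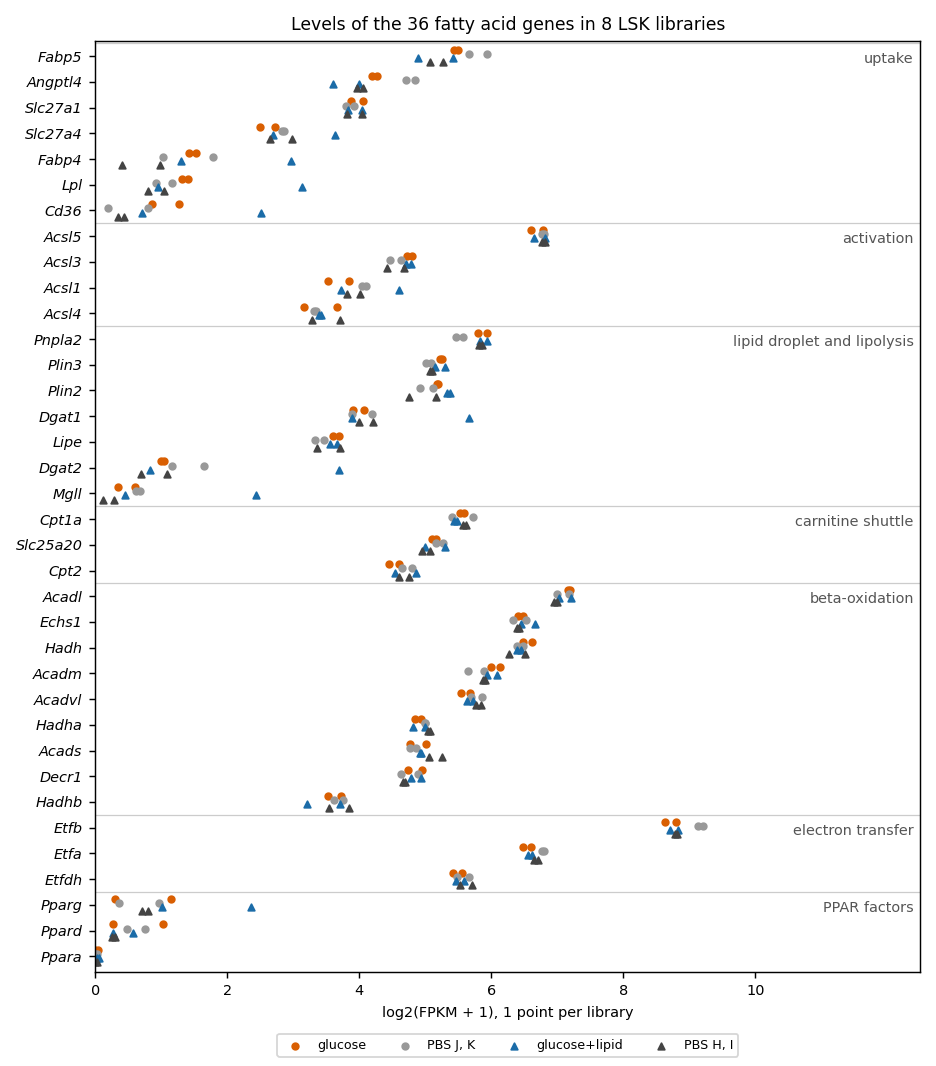
Level of each of the 36 members (y axis, grouped by role) in the 8 libraries, as log2(FPKM + 1) on the x axis, with 1 point per library for glucose, PBS J/K, glucose with lipid, and PBS H/I. Points of a gene mostly lie close together, from the PPAR factors near 0 to Etfb at 397 to 591 FPKM, and a single glucose with lipid point lies to the right for Dgat1, Dgat2, Mgll, Lpl, Cd36, Fabp4 and Pparg.

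Beta-oxidation enzymes were well expressed and differed little between groups. The first step is taken by acyl-CoA dehydrogenases of different chain-length preference, of which Acadl and Acadm stood highest here. Acadl had 145 and 142 FPKM under glucose, against 127 and 144 in PBS J/K, and 129 and 147 FPKM under glucose with lipid, against 122 and 127 in PBS H/I. The groups overlapped for glucose, and both glucose with lipid libraries lay above both of their controls by a small margin. Acadm, the medium-chain enzyme whose loss causes the commonest human disorder of fatty acid oxidation, was the one gene of this group with all 4 treated libraries above all 4 PBS libraries. The level of Acadm was 63.1 and 69.3 FPKM in glucose libraries, against 49.4 and 58.4 in PBS J/K, while glucose with lipid libraries held 59.9 and 66.9 FPKM, against 57.4 and 59 in PBS H/I. Its log2 fold change was 0.30 ± 0.12 (SE) after glucose (unadjusted p = 0.0401, limma adjusted p = 0.316), 0.12 ± 0.12 after glucose with lipid and 0.21 ± 0.09 for all treated libraries (unadjusted p = 0.0479, limma adjusted p = 0.432). The lowest treated library (59.9 FPKM) lay close above the highest PBS library (59.0 FPKM). With PBS J at 49.4 FPKM, PBS J/K were further apart from each other than PBS H/I.

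The very long-chain enzyme Acadvl leaned the other way. Acadvl had 45.7 and 50.2 FPKM under glucose, against 57.1 and 50.7 in PBS J/K, and 52 and 48.8 FPKM under glucose with lipid, against 56.2 and 53.4 in PBS H/I. Both treated pairs lay below their own controls, though glucose with lipid replicate 1 lay above PBS K. Its log2 fold change for all treated libraries was -0.14 ± 0.08 (unadjusted p = 0.112, limma adjusted p = 0.524). Acads, the short-chain enzyme, differed between the control pairs. The level of Acads was 26.3 and 31.2 FPKM in glucose libraries, against 28 and 26.4 in PBS J/K, while glucose with lipid libraries held 29.7 and 29.3 FPKM, against 37.1 and 32.4 in PBS H/I. PBS H/I lay above PBS J/K with a log2 difference of 0.34 ± 0.13 (unadjusted p = 0.0308, limma adjusted p = 0.244), while the treated libraries spanned 26.3 to 31.2 FPKM.

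The later steps belong to hydratases, hydroxyacyl dehydrogenases and thiolases. Hadha and Hadhb encode the subunits of the mitochondrial trifunctional protein, which acts on long chains. Hadha had 27.6 and 29.5 FPKM under glucose, against 30.9 and 31.1 in PBS J/K, and 31 and 27.2 FPKM under glucose with lipid, against 32.6 and 31.8 in PBS H/I. Both treated pairs lay below their own controls by a small margin, at -0.11 ± 0.12 and -0.15 ± 0.12 on the log2 scale. Hadhb ran lower, at 8.25 to 13.3 FPKM over the 8 libraries, and its groups overlapped in both comparisons. Hadh, the short-chain hydroxyacyl dehydrogenase, and Echs1, the short-chain hydratase, stood at like levels. The level of Hadh was 97.2 and 88.1 FPKM in glucose libraries, against 88.2 and 82.4 in PBS J/K, while glucose with lipid libraries held 86.9 and 83.2 FPKM, against 90.5 and 75.9 in PBS H/I. Echs1 had 83.8 and 88.2 FPKM under glucose, against 79.7 and 90.9 in PBS J/K, and 86.4 and 99.8 FPKM under glucose with lipid, against 84.4 and 82.5 in PBS H/I. Neither separated all treated from all PBS libraries. Decr1, a reductase needed for unsaturated chains, ranged from 23.9 to 29.8 FPKM. Over the 9 beta-oxidation genes the median log2 fold change was 0.07 after glucose and 0.04 after glucose with lipid, and its values ran from -0.16 to 0.30 after glucose and from -0.23 to 0.18 after glucose with lipid. Reads on the stretches where Acadvl overlaps Dvl2, Hadha overlaps Garem2 and Echs1 overlaps Paox on the opposite strand cannot be assigned without strand, and the labels do not state a stranded library. The same holds for Acsl5 with Zdhhc6, Etfdh with 4930579G24Rik, Lipe with 4732471J01Rik, Pparg with Gm44079, Acsl1 with Gm45244, Acadl with Gm27934 and Mgll with Gm26588. Etfb overlaps Gm45233 and Acsl3 overlaps Utp14b on the same strand, where strand would not tell them apart.

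Etfa and Etfb encode the dimeric flavoprotein that collects electrons from the acyl-CoA dehydrogenases, and Etfdh the ubiquinone oxidoreductase that receives them. Etfb (chromosome 7, 43444083 to 43457800, GRCm38) was the most abundant member. Etfb had 443 and 397 FPKM under glucose, against 591 and 562 in PBS J/K, and 415 and 455 FPKM under glucose with lipid, against 441 and 449 in PBS H/I. The PBS J/K libraries stood apart at 591 and 562 FPKM, and the other 6 libraries, treated or not, lay between 397 and 455 FPKM. The log2 fold change after glucose was -0.46 ± 0.10 (unadjusted p = 0.00157, limma adjusted p = 0.176), the smallest unadjusted p of any member in a treatment comparison. It was -0.03 ± 0.10 after glucose with lipid, and the difference between these effects was 0.42 ± 0.14 (unadjusted p = 0.0150, limma adjusted p = 0.331). With PBS H/I as controls the change after glucose was -0.08 ± 0.10. The PBS pairs differed by -0.37 ± 0.10 (PBS H/I minus PBS J/K, unadjusted p = 0.00504, limma adjusted p = 0.160), without any treatment. For all treated libraries the change of Etfb was -0.24 ± 0.10 (unadjusted p = 0.0420, limma adjusted p = 0.413).

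Etfa was the only member whose 4 treated libraries all lay below all 4 PBS libraries. The level of Etfa was 96.1 and 88.5 FPKM in glucose libraries, against 111 and 108 in PBS J/K, while glucose with lipid libraries held 92.9 and 96.9 FPKM, against 99 and 103 in PBS H/I. The gap was narrow, with 96.9 FPKM in the highest treated and 99.0 FPKM in the lowest PBS library. Its log2 fold change was -0.24 ± 0.09 after glucose (unadjusted p = 0.0298, limma adjusted p = 0.293), -0.09 ± 0.09 after glucose with lipid and -0.17 ± 0.07 for all treated libraries (unadjusted p = 0.0503, limma adjusted p = 0.440). Etfdh showed no such separation. Etfdh had 46.1 and 42 FPKM under glucose, against 43.9 and 49.8 in PBS J/K, and 47.1 and 43.3 FPKM under glucose with lipid, against 45 and 51.1 in PBS H/I. Groups overlapped in both comparisons.

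The carnitine shuttle carries long-chain acyl groups into mitochondria. Cpt1a, the outer-membrane transferase that sets the pace of the pathway and is blocked by malonyl-CoA, was the isoform present. The level of Cpt1a was 46.9 and 44.9 FPKM in glucose libraries, against 51.9 and 41.6 in PBS J/K, while glucose with lipid libraries held 42.2 and 43.4 FPKM, against 46.5 and 48 in PBS H/I. Its muscle and brain relatives Cpt1b and Cpt1c reached at most 0.588 and 0.777 FPKM in any library. The groups of Cpt1a overlapped for glucose, and both glucose with lipid libraries lay below both controls at a log2 fold change of -0.14 ± 0.13. Slc25a20 encodes the carrier that exchanges acylcarnitine for carnitine across the inner membrane. Slc25a20 had 33.4 and 34.7 FPKM under glucose, against 37.5 and 34.8 in PBS J/K, and 30.8 and 38.2 FPKM under glucose with lipid, against 29.8 and 32.5 in PBS H/I. Both glucose libraries lay just below both of their controls, while glucose with lipid replicate 1 lay between its controls and replicate 2 above both. Cpt2, the inner-membrane transferase, ranged from 20.8 to 28.0 FPKM. Over these 3 genes the log2 fold changes ran from -0.20 to -0.02 after glucose and from -0.14 to 0.14 after glucose with lipid, and the smallest unadjusted p was 0.224 and 0.298.

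Long-chain acyl-CoA synthetases activate fatty acids. Acsl5 was the leading form and one of the steadiest members, with a coefficient of variation of 5.43% over the 8 libraries. The level of Acsl5 was 96.5 and 109 FPKM in glucose libraries, against 109 and 110.1 in PBS J/K, while glucose with lipid libraries held 112 and 99.1 FPKM, against 108 and 112 in PBS H/I. The groups overlapped in both comparisons. Acsl3, an endoplasmic reticulum and lipid droplet form, was one of the members with all 4 treated above all 4 PBS libraries. Acsl3 had 25.5 and 26.7 FPKM under glucose, against 23.9 and 21.2 in PBS J/K, and 25.2 and 26.5 FPKM under glucose with lipid, against 24.6 and 20.5 in PBS H/I. The separation was 25.2 FPKM in the lowest treated against 24.6 FPKM in the highest PBS library, at a log2 fold change of 0.20 ± 0.09 for all treated libraries (unadjusted p = 0.0642, limma adjusted p = 0.462). Acsl1 stood at 23.2 FPKM in glucose with lipid replicate 1 and between 10.5 and 16.1 FPKM in the other 7 libraries. Both of its glucose libraries, at 10.5 and 13.3 FPKM, lay below PBS J/K at 15.4 and 16.1 FPKM. Acsl4, which prefers arachidonic acid, ranged from 7.94 to 12.1 FPKM with overlapping groups, and the related Acsl6 was listed at 0 in 6 of the 8 libraries.

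Among lipid droplet genes, the coat proteins were higher in treated libraries by a small margin. Plin2 (chromosome 4, 86648386 to 86670060, GRCm38) encodes the droplet coat protein that rises with lipid loading in many cells and is a known PPAR target. The level of Plin2 was 35.2 and 35.5 FPKM in glucose libraries, against 33.6 and 29.2 in PBS J/K, while glucose with lipid libraries held 39.2 and 40.6 FPKM, against 26 and 34.7 in PBS H/I. All 4 treated libraries lay above all 4 PBS libraries, but the lowest treated library (35.2 FPKM) was close to PBS I (34.7 FPKM). Its log2 fold change was 0.40 ± 0.15 after glucose with lipid (unadjusted p = 0.0321, limma adjusted p = 0.379), 0.17 ± 0.15 after glucose and 0.28 ± 0.11 for all treated libraries (unadjusted p = 0.0329, limma adjusted p = 0.396). Without PBS H, its lowest library at 26 FPKM, the change after glucose with lipid was 0.20. Without glucose with lipid replicate 1 it was 0.42. Plin3, a related coat protein, separated in the same way. Plin3 had 36.3 and 37 FPKM under glucose, against 32.9 and 31.2 in PBS J/K, and 38.6 and 34.3 FPKM under glucose with lipid, against 33.4 and 32.5 in PBS H/I. The log2 fold change of Plin3 for all treated libraries was 0.16 ± 0.08 (unadjusted p = 0.0730, limma adjusted p = 0.471). Plin1, the coat protein of fat cells, was listed at 0 in all 8 libraries, Plin4 reached at most 0.0767 FPKM and Plin5 at most 0.536 FPKM.

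In all, 4 members had every treated library above every PBS library (Acadm, Acsl3, Plin2 and Plin3) and 1 had every treated library below (Etfa). That is 15.2% of the tested members, against 6.39% of all genes with groups that did not overlap in either direction. The promoters of Plin2 and Acadm are shown because these are the separated members that hold AGGTCA, the core element of PPAR and related nuclear receptors, in the RefSeq window of 250 bases before to 50 after the start (GRCm38.p6, sequence of the gene's own strand). Capitals mark this core element, which lies on the opposite strand in both and so reads TGACCT, and in Plin2 also an E-box, CACGTG.
Plin2, chr4:86670010-86670309, minus strand: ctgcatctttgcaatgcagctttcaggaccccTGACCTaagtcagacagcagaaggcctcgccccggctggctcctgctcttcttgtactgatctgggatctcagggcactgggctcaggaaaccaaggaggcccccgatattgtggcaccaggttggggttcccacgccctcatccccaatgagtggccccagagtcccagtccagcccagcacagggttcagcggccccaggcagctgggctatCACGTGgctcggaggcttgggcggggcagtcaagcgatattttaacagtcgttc
Acadm, chr3:153944594-153944893, minus strand: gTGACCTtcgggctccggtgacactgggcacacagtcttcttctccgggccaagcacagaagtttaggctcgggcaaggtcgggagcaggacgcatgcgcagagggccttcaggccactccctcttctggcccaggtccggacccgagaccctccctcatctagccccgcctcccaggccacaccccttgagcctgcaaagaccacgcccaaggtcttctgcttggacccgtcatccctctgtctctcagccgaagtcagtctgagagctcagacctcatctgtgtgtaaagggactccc
In Plin2 the core element lies at -218 to -213 from the start and the E-box at -4 to 2, and in Acadm it lies at -249 to -244. Of the 36 members, 29 had at least 1 such window. On either strand AGGTCA was present in 8 of their 36 windows (22.2%), against 16.3% of all 32851 windows, and CACGTG in 4 (11.1%) against 7.15%. A perfect PPAR element, in which 2 exact cores are spaced by a base, AGGTCANAGGTCA, was in none of the member windows and in 0.0396% of all windows. Only this exact string was searched, within these windows, so its absence does not show that a member lacks a PPAR element. A match is a description of these letters and not of binding.

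Lipolysis begins with Pnpla2, the adipose triglyceride lipase. The level of Pnpla2 was 54.7 and 59.9 FPKM in glucose libraries, against 43.1 and 46.6 in PBS J/K, while glucose with lipid libraries held 55.7 and 60.4 FPKM, against 55.4 and 57.1 in PBS H/I. PBS J/K stood lowest, and the glucose, glucose with lipid and PBS H/I libraries shared one range from 54.7 to 60.4 FPKM. The log2 fold change was 0.35 ± 0.11 after glucose (unadjusted p = 0.0116, limma adjusted p = 0.237) and 0.04 ± 0.11 after glucose with lipid. With PBS H/I as controls the change after glucose was 0.03 ± 0.11, and the PBS pairs themselves differed by 0.32 ± 0.11 (unadjusted p = 0.0167, limma adjusted p = 0.202). Lipe, the hormone-sensitive lipase, stood at 9.06 to 12.1 FPKM, with both glucose libraries (11.2 and 11.9 FPKM) above PBS J/K (9.998 and 9.06 FPKM). Its log2 fold change after glucose was 0.26 ± 0.17.

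Uptake genes were of mixed level, and Fabp5, an intracellular fatty acid carrier, was the highest of them. Fabp5 had 44.1 and 42.3 FPKM under glucose, against 60.3 and 49.9 in PBS J/K, and 41.6 and 28.8 FPKM under glucose with lipid, against 37.6 and 32.5 in PBS H/I. Its levels were highest in PBS J/K and lowest in glucose with lipid replicate 2. The log2 fold change was -0.34 ± 0.18 after glucose and -0.01 ± 0.18 after glucose with lipid, and PBS H/I differed from PBS J/K by -0.63 ± 0.18 (unadjusted p = 0.00919, limma adjusted p = 0.170). Of the other carriers, Fabp3 reached at most 0.358 FPKM and Fabp1 and Fabp2 were listed at 0 throughout.

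Angptl4 (chromosome 17, 33773750 to 33781830, GRCm38) encodes a secreted inhibitor of lipoprotein lipase and is a known target of PPARs and of fasting. The level of Angptl4 was 18.2 and 17.3 FPKM in glucose libraries, against 27.7 and 25 in PBS J/K, while glucose with lipid libraries held 15 and 11.1 FPKM, against 15.7 and 14.7 in PBS H/I. PBS J/K stood above all 6 other libraries, and glucose with lipid replicate 2 stood lowest. The log2 fold change was -0.55 ± 0.16 after glucose (unadjusted p = 0.0102, limma adjusted p = 0.232), -0.22 ± 0.16 after glucose with lipid and -0.38 ± 0.12 for all treated libraries (unadjusted p = 0.0137, limma adjusted p = 0.347). With PBS H/I as controls the change after glucose turned to 0.21 ± 0.16. The PBS pairs differed by -0.76 ± 0.16 (unadjusted p = 0.00173, limma adjusted p = 0.121), a larger size than either treatment difference.

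The fatty acid transport proteins Slc27a1 and Slc27a4 also activate their cargo. Slc27a1 ranged from 12.9 to 15.6 FPKM with overlapping groups in both comparisons. Slc27a4 lay at 4.66 to 6.88 FPKM in 7 libraries and at 11.4 FPKM in glucose with lipid replicate 1. Both glucose libraries of Slc27a4, at 5.59 and 4.66 FPKM, lay below PBS J/K at 6.26 and 6.13 FPKM.

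**Figure D3:**
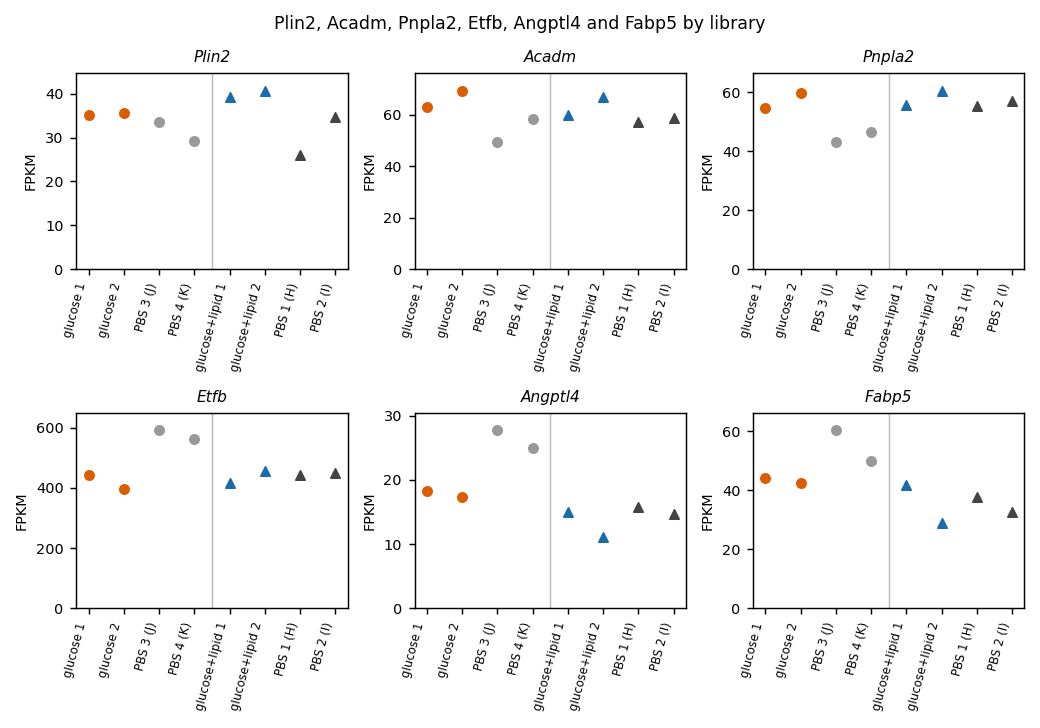
FPKM (y axes, from 0) of Plin2, Acadm, Pnpla2, Etfb, Angptl4 and Fabp5 in each of the 8 libraries (x axes), with circles for glucose and PBS J/K and triangles for glucose with lipid and PBS H/I. Plin2 and Acadm are slightly higher in treated libraries, and Etfb, Angptl4 and Fabp5 are high and Pnpla2 is low in PBS J/K.

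The PPAR genes were near the lower limit of these data. Ppara was listed at 0 in 3 libraries and reached at most 0.0441 FPKM. Ppard had 0.202 and 1.04 FPKM under glucose, against 0.400 and 0.694 in PBS J/K, and 0.205 and 0.495 FPKM under glucose with lipid, against 0.235 and 0.191 in PBS H/I. One library, glucose replicate 2, passed 1 FPKM for Ppard. The level of Pparg was 0.233 and 1.22 FPKM in glucose libraries, against 0.964 and 0.287 in PBS J/K, while glucose with lipid libraries held 4.16 and 1.02 FPKM, against 0.635 and 0.736 in PBS H/I. Apart from glucose with lipid replicate 1, no library exceeded 1.22 FPKM for Pparg. Of the RXR partners with which PPARs pair, Rxrb stood at 24.9 to 41.3 FPKM, Rxra at 0.984 to 2.29 FPKM, and Rxrg was listed at 0 in 7 libraries. The log2 fold change of Rxrb was -0.36 ± 0.11 after glucose (unadjusted p = 0.0142, limma adjusted p = 0.250). For all treated libraries it was -0.28 ± 0.09, and PBS H/I differed from PBS J/K by 0.25 ± 0.11. That of Rxra was 0.60 ± 0.25 after glucose with lipid (unadjusted p = 0.0481, limma adjusted p = 0.418). The known PPAR target Pdk4, a kinase that restrains pyruvate use, reached at most 0.823 FPKM.

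A set of uptake, storage and PPAR genes stood high in 1 library. In glucose with lipid replicate 1, Cd36, Lpl, Fabp4, Dgat1, Dgat2, Mgll and Pparg lay above 2 times the highest of the other 7 libraries, and none of the other 7 libraries held a member in that position. Of the 33 tested members, 6 (18.2%) were in that position, against 2.22% of all tested genes. The 6 include Cd36 and Pparg, which entered the test through treated libraries alone, and Mgll was not tested. This position was chosen after the values were seen, so the shares describe the library and test nothing. Dgat1 and Dgat2 encode the enzymes of the last step of triglyceride synthesis, and Mgll the lipase of the last step of its breakdown. Dgat1 had 14 and 15.7 FPKM under glucose, against 13.8 and 17.4 in PBS J/K, and 49.7 and 13.9 FPKM under glucose with lipid, against 15 and 17.5 in PBS H/I. The level of Dgat2 was 1.07 and 0.999 FPKM in glucose libraries, against 2.14 and 1.24 in PBS J/K, while glucose with lipid libraries held 11.9 and 0.781 FPKM, against 0.624 and 1.12 in PBS H/I. Mgll had 0.525 and 0.275 FPKM under glucose, against 0.542 and 0.603 in PBS J/K, and 4.39 and 0.369 FPKM under glucose with lipid, against 0.213 and 0.0862 in PBS H/I. Replicate 2 of the same group lay within the range of the PBS libraries for Dgat1, Dgat2 and Mgll, and for the members that follow it did so for Lpl, Fabp4 and Cd36. Lpl cuts triglyceride in lipoproteins, Cd36 is a fatty acid translocase, and Fabp4 a carrier of fat cells, macrophages and endothelium. The level of Lpl was 1.64 and 1.49 FPKM in glucose libraries, against 0.901 and 1.24 in PBS J/K, while glucose with lipid libraries held 7.80 and 0.942 FPKM, against 1.07 and 0.748 in PBS H/I. Cd36 had 1.41 and 0.810 FPKM under glucose, against 0.141 and 0.748 in PBS J/K, and 4.70 and 0.633 FPKM under glucose with lipid, against 0.266 and 0.360 in PBS H/I. The level of Fabp4 was 1.68 and 1.89 FPKM in glucose libraries, against 2.43 and 1.03 in PBS J/K, while glucose with lipid libraries held 6.78 and 1.47 FPKM, against 0.982 and 0.332 in PBS H/I. In the glucose libraries, Cd36 and Lpl lay slightly above PBS J/K and the groups of Fabp4 overlapped.

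For glucose with lipid against PBS H/I, the log2 fold change was 1.43 ± 0.53 for Fabp4 (unadjusted p = 0.0275, limma adjusted p = 0.360), 1.37 ± 0.77 for Dgat2, 1.22 ± 0.55 for Cd36, 1.12 ± 0.60 for Lpl, 0.94 ± 0.49 for Pparg and 0.68 ± 0.48 for Dgat1. Without replicate 1 these were 0.61 for Fabp4, -0.06 for Dgat2, 0.03 for Lpl, 0.26 for Pparg and -0.21 for Dgat1, and Cd36 no longer passed the level filter. Cd36 and Pparg reached 1 FPKM in treated libraries alone, so that they were tested only through the group where they are high and their tests support nothing. Without replicate 2, replicate 1 is the only library of its group. The log2 fold changes were then 2.80 for Dgat2, 2.26 for Fabp4, 2.21 for Lpl, 2.12 for Cd36, 1.61 for Pparg and 1.56 for Dgat1. These values rest on 1 library, and a test there would assume that a lone library varies as the other groups do. Replicate 1 was also the library with 65156 FPKM of summed neutrophil markers and 4920.4 FPKM of summed monocyte and macrophage markers, against at most 442 and 523 FPKM in the others. The part of those cells in the levels of the 7 genes was not tested. The 9 adipocyte markers summed to 1.61 FPKM in glucose with lipid replicate 1, against 0 to 1.33 FPKM in the other 7 libraries. Adipoq stood at 0.755 FPKM in replicate 1, against at most 0.237 FPKM elsewhere. The highest single value was Adig at 1.25 FPKM in replicate 2, and Plin1 and Adrb3 were listed at 0 in all 8 libraries. The 8 endothelial markers summed to 7.70 and 9.72 FPKM in glucose with lipid replicates 1 and 2, against 1.78 to 6.54 FPKM in the 4 PBS libraries, with Cldn5 highest at 5.90 FPKM in replicate 2 and Cdh5 at most 0.0818 FPKM. The 8 marrow stroma markers summed to 18.7 FPKM in replicate 1, against 8.11 to 13.8 FPKM in the other 7 libraries. Of these 8, only Cxcl12, at 10.5 FPKM in replicate 1, lay above 2 times the highest other library. The part of these cell types was not tested.

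**Figure D4:**
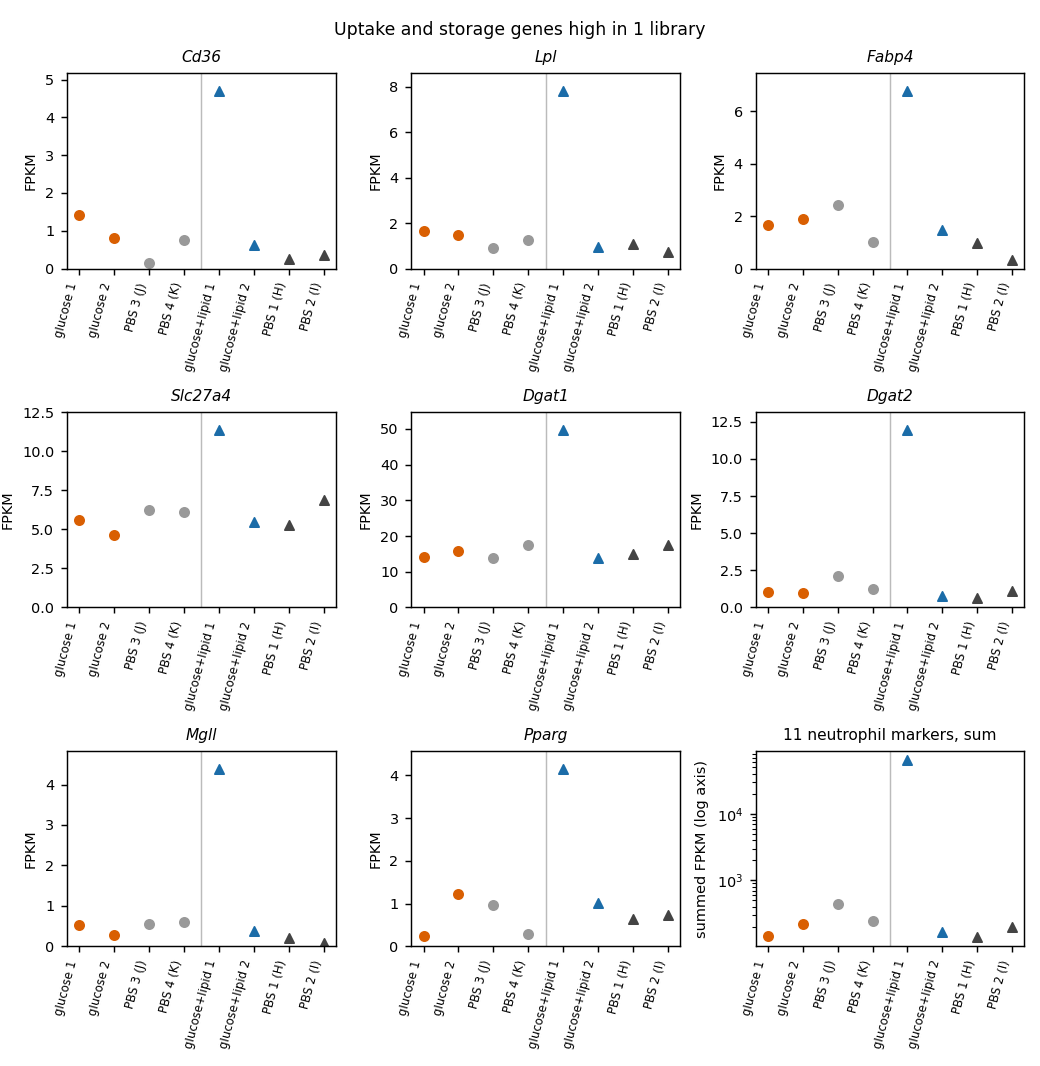
FPKM (y axes, from 0) of Cd36, Lpl, Fabp4, Slc27a4, Dgat1, Dgat2, Mgll and Pparg in each of the 8 libraries (x axes), and in the last panel the summed FPKM of 11 neutrophil markers on a log axis. The first glucose with lipid library is the highest in every panel, for example 49.7 FPKM of Dgat1 against 13.8 to 17.5 FPKM elsewhere and 65156 FPKM of neutrophil markers against 138 to 442 FPKM elsewhere.

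**Figure D5:**
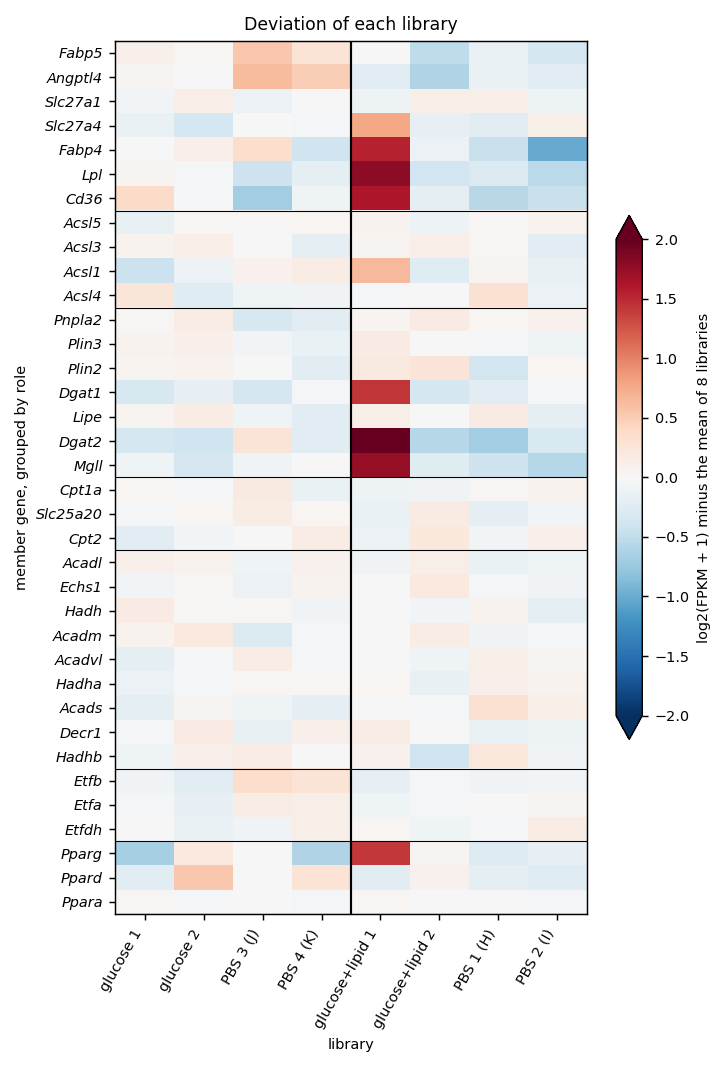
Deviation of each library (columns) from the mean of the 8 libraries for each member (rows, grouped by role), on the log2(FPKM + 1) scale, with red for higher and blue for lower and colours capped at 2 in either direction. The darkest cells are Dgat2, Lpl, Mgll, Cd36, Fabp4, Dgat1 and Pparg in the first glucose with lipid library, and PBS J/K are pale red for Fabp5, Angptl4 and Etfb.

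A wider list of 115 further genes of lipid uptake, storage, peroxisomal and mitochondrial oxidation was counted beside the members, of which 109 were found and 76 tested. None passed over all genes in any of the 5 comparisons. At an unadjusted p under 0.05 there were 5 higher and 8 lower after glucose, or 17.1% against 14.9% of all genes, and 3 higher and 0 lower after glucose with lipid, or 3.95% against 11.8% of all genes. The median log2 fold change was 0.03 after glucose and 0.04 after glucose with lipid. After glucose the genes with the smallest unadjusted p among those with separated groups were Pprc1, a coactivator of the PGC-1 family (-0.57 ± 0.13), Got2, the mitochondrial aspartate aminotransferase that also binds fatty acids at the cell surface (-0.45 ± 0.11), Acot7, an acyl-CoA thioesterase (-0.36 ± 0.11), and Nrip1, a nuclear receptor corepressor (0.45 ± 0.14). Their limma adjusted p ran from 0.204 to 0.242. With PBS H/I as controls these became -0.02, -0.11, -0.02 and 0.07.

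After glucose with lipid, the genes of the wider list described were Ucp2, a mitochondrial carrier (0.35 ± 0.13), Apoe, the lipoprotein component (0.67 ± 0.29), and Lrp8, an Apoe receptor (-0.57 ± 0.26). Their unadjusted p was 0.0265, 0.0532 and 0.0622, so that of them Ucp2 alone is among the 3 counted above. Their limma adjusted p ran from 0.356 to 0.444. Without replicate 1 the changes of Ucp2 and Apoe were 0.16 and 0.13, and with PBS J/K as controls that of Lrp8 was -0.04. Apoe stood at 214 and 101 FPKM in glucose with lipid replicates 1 and 2, against 95.3 and 89.6 FPKM in PBS H/I. G0s2, an inhibitor of Pnpla2 that was chosen after its values were seen, stood at 54.5 FPKM in glucose with lipid replicate 1 and at most 1.29 FPKM in the other 7 libraries.

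For all treated against all PBS libraries, the 4 genes of the wider list with every treated library beyond every PBS library were all lower. They were Fitm2, a protein of droplet formation (-0.56 ± 0.17), Hsd17b4, the peroxisomal bifunctional enzyme (-0.23 ± 0.08), Got2 (-0.28 ± 0.10) and Acat1, a mitochondrial thiolase (-0.14 ± 0.07). Fitm2 had 4.40 and 6.54 FPKM under glucose, against 9.96 and 8.01 FPKM in PBS J/K, and 6.89 and 4.60 FPKM after glucose with lipid, against 8.49 and 8.11 FPKM in PBS H/I. No gene of the 4 passed, with limma adjusted p from 0.309 to 0.505, and 5.26% of the wider list was separated in this way, against 6.39% of all genes.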

How the data were processed

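Per the labels' protocols, cDNA was made with SMART-Seq HT from RNA of about 10000 sorted cells, and Nextera XT was used for the libraries. The submitters' processing notes name Cuffnorm 2.2.1, TopHat2 2.0.13, Bowtie2 2.2.3 and SAMtools 1.0, and build mm10. Annotation and library scaling were not given in the sources used here. The deposited values were taken as FPKM per gene, made by the authors, with 1 table per library. Read counts were not recovered, so depth is known only by an estimate from the steps of low values, at 0.786 to 1.14 times that of glucose replicate 1, and no counting intervals are given.

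From these values, log2(FPKM + 1) was fitted with limma 3.58.1 (R 4.3.3) over all 8 libraries for 11931 genes that reached 1 FPKM in 2 or more libraries. Terms were glucose, glucose with lipid, PBS H/I and PBS J/K. The comparison of all treated with all PBS libraries came from a separate fit of the same libraries. Its terms were treatment and the control set, that is, glucose with PBS J/K or glucose with lipid with PBS H/I. P-values are two-sided and adjusted by Benjamini-Hochberg over all genes tested, with a threshold of 0.05. The fit was tested on simulated data before use. The alternatives were another pseudocount, other filters, rescaling, other controls, fewer libraries, a replicate block and leaving out each library.

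Values in every library are given for members with an unadjusted p under 0.05 or a mean of at least 30 FPKM, and where relatives are compared. Other pathway genes were named by up to 4 per comparison with the smallest unadjusted p, a mean of at least 3 FPKM and groups that did not overlap. 1 gene that met this rule is not reported here. The members and lists were chosen with earlier results of these data known. Gene positions come from GENCODE vM21 (GRCm38) and promoters from RefSeq (GRCm38.p6). Figures were drawn with matplotlib 3.10.9.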

Additional observations from a re-analysis of the deposited data

Results flagged for a closer look

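Members with at least 1 FPKM in some library of the set were checked for a library far from the others among the 4 treated and among the 4 PBS libraries, in 66 checks, of which chance flags about 1 in 20. There were 9 such values, and 6 of them were in glucose with lipid replicate 1. That library stood high among the treated libraries for Dgat1 (49.7 FPKM, nearest other 15.7), Dgat2 (11.9 FPKM, nearest other 1.07), Slc27a4 (11.4 FPKM, nearest other 5.59), Lpl (7.80 FPKM, nearest other 1.64), Fabp4 (6.78 FPKM, nearest other 1.89) and Mgll (4.39 FPKM, nearest other 0.525). Glucose with lipid replicate 2 stood low for Fabp5, at 28.8 FPKM with the nearest other treated library at 41.6 FPKM. Among PBS libraries, H stood high for Acsl4 (12.1 FPKM, nearest other 9.16) and J low for Acadm (49.4 FPKM, nearest other 57.4).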

How the results depend on the processing

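Of the alternatives run, the one that called any member was leaving out glucose with lipid replicate 2. Genes called after glucose numbered 19 with a pseudocount of 0.1 FPKM and 7 with all 4 PBS libraries as controls, against 12. After glucose with lipid they numbered 3 without a filter, 28 with crossed PBS pairs and 4 with only the 4 libraries compared, against 9. For all treated libraries they numbered 17 without a filter, against 32, and between the PBS pairs 2 without a filter and 17 with only the 4 libraries compared, against 6. With a filter of 5 FPKM the members' median was -0.0363 after glucose, 0.0293 after glucose with lipid, 0.0385 for the difference and 0.00767 for all treated libraries. Angptl4 after glucose turned to 0.21 with crossed PBS pairs, and after glucose with lipid Slc27a4, Dgat1 and Dgat2 turned to -0.125, -0.208 and -0.0609 without replicate 1. Without replicate 2 they were 0.814, 1.56 and 2.80, and the cause was not tested.

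Leaving out 1 library at a time gave 7 to 35 genes called after glucose, 2 to 265 after glucose with lipid, 2 to 138 for the difference, 12 to 33 for all treated libraries and 2 to 15 between the PBS pairs. The fit without glucose with lipid replicate 2, which rests on 1 library of that group, was the only one of these that called members. The members' median ranged from -0.0209 to 0.0292 after glucose, 0.0169 to 0.117 after glucose with lipid, 0.0177 to 0.138 for the difference and -0.0182 to 0.0888 for all treated libraries. With a replicate block for glucose with lipid and PBS H/I, 11 genes and 0 members were called and the members' median was 0.08; the deviations of same-numbered libraries correlated at 0.066 across genes, so the numbers were not taken as pairs. Depth is known only by estimate, which limits what can be said of genes near 0 such as Ppara.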
